A study of Mus musculus with 6 samples.

Results

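The genes described are the IL-17, IL-22 and IL-23 cytokine axis. They comprise the ligands Il17a, Il17f, Il17c, Il22 and Il23a, the receptor subunits Il17ra, Il17re and Il23r, and Nfkbiz, a nuclear regulator that IL-17 induces. They were taken by symbol, as the table entries annotated to exactly 1 of these 9 names, and 8 of the 9 had a transcript cluster (the set of array probes for a gene) of their own among 28853 clusters. Il22 lay only on clusters shared with its near-identical copy Iltifb and is given apart. The 9 genes were chosen by their differences between these groups, already known, so those differences are a description and carry no test.

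The RNA came from intact digits of mice aged 8 weeks, hybridised to Affymetrix MoGene 1.0 ST arrays. Controls labelled wildtype gave 3 arrays and animals labelled K14-CreER;Ctnnb1 cKO (cKO below) gave 3. Ctnnb1 encodes beta-catenin. K14-CreER is a Cre recombinase that acts after an inducer in cells using the keratin 14 promoter, chiefly basal epithelium, so lymphocytes, dermis and bone of the digit are not its target. The induction schedule and the controls' Cre and floxed alleles are not given in the sources used here. The titles call the arrays biological replicates without naming animals, so the p-values reflect only how these samples varied, which may be technical.

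IL-23, a dimer of the p19 subunit encoded by Il23a and the p40 subunit encoded by Il12b, acts through Il23r on T cells and innate lymphocytes and sustains their output of IL-17A, IL-17F and IL-22. IL-17A and IL-17F signal through receptor complexes of Il17ra and Il17rc, and IL-17C, made by epithelial cells, through Il17ra and Il17re. In keratinocytes these signals and IL-22 induce antimicrobial proteins and chemokines, and IkappaB-zeta, the product of Nfkbiz, is needed for part of that response. The axis is known for its role in psoriasis and in defence of the skin against microbes.

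Il17a and Il17f are neighbours on chromosome 1, with 0 genes of the RefSeq table wholly between them. They had the largest differences of the ligands with all 6 arrays, though not without cKO replicate 1, where both Il22 clusters exceeded Il17a. The windows of 250 bases before to 50 bases after their start sites are shown for that reason, from RefSeq on build GRCm38.p6, with Il17a at chr1:20730655-20730954 on the plus strand and Il17f at chr1:20784221-20784520 on the minus strand. Capitals mark matches on either strand to AGGTCA (a nuclear receptor half-site), TGANTCA (AP-1-like), GGG and CC with any 5 bases between (a loose kappaB-like pattern), TTCNNNGAA (STAT-like), TTGCNNAA (C/EBP-like) or CTTTGAT (TCF/LEF-like).
Il17a: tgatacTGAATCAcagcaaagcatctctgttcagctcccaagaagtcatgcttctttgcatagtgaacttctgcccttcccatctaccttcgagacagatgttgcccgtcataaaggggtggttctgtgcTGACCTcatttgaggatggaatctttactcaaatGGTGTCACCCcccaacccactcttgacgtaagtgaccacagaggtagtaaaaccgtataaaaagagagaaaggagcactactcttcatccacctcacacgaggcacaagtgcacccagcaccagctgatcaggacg
Il17f: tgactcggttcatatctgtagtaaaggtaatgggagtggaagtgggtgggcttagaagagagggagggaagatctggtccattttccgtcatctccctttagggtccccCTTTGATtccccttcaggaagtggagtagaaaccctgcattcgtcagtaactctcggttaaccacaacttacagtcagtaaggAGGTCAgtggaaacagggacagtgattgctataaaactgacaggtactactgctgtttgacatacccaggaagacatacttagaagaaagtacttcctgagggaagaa
Both windows held 1 AGGTCA match, which 16.3% of 32851 RefSeq windows of this length also hold. That of Il17a also held a TGANTCA match (7.8% of windows) and a kappaB-like match (50.8%), none of which overlapped, and that of Il17f a CTTTGAT match (3.7%). Neither held TTCNNNGAA (8.3%) or TTGCNNAA (10.8%). Windows were matched for 6 of the 9 genes. A match is a description of letters and says nothing of binding.

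Each value is a log2 signal with the gene's control median set to 0. No absolute level can be read from them, so the tissue's defining markers could not be checked for presence, and levels of different genes cannot be compared. Ctnnb1 was lower in the cKO arrays by a log2 difference of -1.14 ± 0.24 (limma SE, adjusted p = 0.0284, where a call is an adjusted p under 0.05), a call that ended without control replicate 1 or 3 or cKO replicate 1 or 3 (highest limma adjusted p 0.148). One array stood apart: cKO replicate 1 had Ddx3y, Eif2s3y and Uty, genes of the Y chromosome, at 8.08, 7.62 and 6.84 and Xist, the X-inactivation transcript, at -5.84, while the other 5 arrays lay between -0.39 and 0.84 in all 4 genes. That is the pattern of a male sample in cKO replicate 1 and of female samples in the other 5, though the labels give no sex. Sex was then unbalanced between the groups, and its part in the differences was not tested. The differences are therefore also given without cKO replicate 1. Array medians over 20793 genes lay between -0.0067 and 0.0866.

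Of the 8 genes, Nfkbiz and Il17f had the largest positive differences, about 4-fold each, and Il17ra was the only one below the controls on every array. Il17a was slightly higher, Il17re, Il23r and Il23a had higher means with overlapping groups, and Il17c had a difference near 0. In bulk tissue, a change in the number of cells of a type and a change in RNA per cell cannot be told apart.

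Il17f, a ligand made mainly by T cells and innate lymphocytes, had control values of 0.71, -0.05 and 0 and cKO values of 1.23, 2.28 and 2.86, each in replicate order. The groups did not overlap, with cKO replicate 1 nearest to the controls and control replicate 1 nearest to the cKO arrays. The means were 0.22 ± 0.43 and 2.12 ± 0.83 (SD, n = 3 each), a difference of 1.90 ± 0.36 (limma SE) or 3.74-fold, and rank 81 from the top of 20793 genes. The difference was 2.35 without cKO replicate 1. In the authors' deposited fold list Il17f had a change of 3.74-fold, and it was not in their list of significant clusters. Its cluster spans positions 20767227 to 20774351 of build mm9 on the minus strand.

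Il17a, the related ligand that forms homodimers and also heterodimers with IL-17F, had control values of 0.13, -0.27 and 0 and cKO values of 0.44, 0.26 and 0.57. These groups did not overlap either, but the lowest cKO array was above the highest control array by 0.13, against 0.52 for Il17f. The difference was 0.47 ± 0.22, or 1.39-fold, and 0.47 without cKO replicate 1. Il17f exceeded Il17a, each relative to its own control median, by 0.79, 2.02 and 2.29 on the cKO arrays and by 0.58, 0.22 and 0 on the control arrays, so cKO replicate 1 was close to control replicate 1 in that gap.

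Il17c, the epithelial ligand, had control values of 0.56, -0.03 and 0 and cKO values of 0.12, 0.08 and 0.31. Its groups overlapped fully, with a difference of -0.0065 ± 0.23, and its highest array was a control. Leaving out 1 array at a time moved the difference between -0.11 and 0.19, and it was 0.02 without cKO replicate 1.

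Il23a, the p19 subunit, had control values of 0.70, -0.12 and 0 and cKO values of 0.52, 0.37 and 0.70. Control replicate 1 was as high as the highest cKO array, and the difference of 0.34 ± 0.25 was 0.59 without that control and 0.34 without cKO replicate 1. Il23r, its receptor subunit, had control values of 0.06, -0.24 and 0 and cKO values of 0.62, -0.21 and 1.13. The cKO arrays were spread widely (0.51 ± 0.68, SD, n = 3): replicate 2 lay among the controls, and the difference of 0.58 ± 0.30 was 0.94 without it, 0.27 without cKO replicate 3 and 0.52 without cKO replicate 1.

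The clusters shared by Il22 and Iltifb, which are annotated to the same positions, gave 0.18, 0 and -0.18 (control) against 0.01, 0.47 and 0.83 (cKO) for one, and 0.12, 0 and -0.09 against -0.35, 0.41 and 0.62 for the other. In both, cKO replicates 2 and 3 lay above the controls and cKO replicate 1 did not. The differences were 0.43 and 0.21, and 0.65 and 0.50 without cKO replicate 1. The share of Il22 itself in these signals is unknown.

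Il17ra, the subunit common to the receptors of IL-17A, IL-17F and IL-17C, had control values of 0, -0.04 and 0.51 and cKO values of -0.70, -0.46 and -0.65. Every cKO array was below every control array, by at least 0.41. The difference was -0.76 ± 0.23, which put the cKO mean at 59.1% of the control's, and -0.71 without cKO replicate 1. The authors' deposited table of significant clusters lists it with a change of -1.69-fold and a corrected p-value of 0.0467, over the clusters left after their filters.

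Il17re, the partner of Il17ra in the IL-17C receptor, had control values of 0.19, 0 and -0.13 and cKO values of 0.14, 0.78 and 0.96. Here cKO replicate 1 lay among the controls, as in the first Il22 cluster, while in the second it was below them. The other cKO arrays of Il17re lay above its controls. The difference was 0.61 ± 0.25, and 0.85 without cKO replicate 1.

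Nfkbiz had control values of -0.23, 0 and 0.17 and cKO values of 2.01, 1.78 and 2.29. The groups were apart by 1.61, the widest gap of the 8 genes, and no cKO array stood out. The means were -0.02 ± 0.20 and 2.03 ± 0.25 (SD, n = 3 each), a difference of 2.05 ± 0.22 or 4.14-fold, and rank 68 from the top of all genes. The authors' deposited table of significant clusters gives 4.14-fold with a corrected p-value of 0.0093. The difference was 2.06 without cKO replicate 1 and stayed between 1.92 and 2.17 whichever array was left out. Its cluster spans positions 55811491 to 55838967 of build mm9 on the minus strand.

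**Figure D1:**
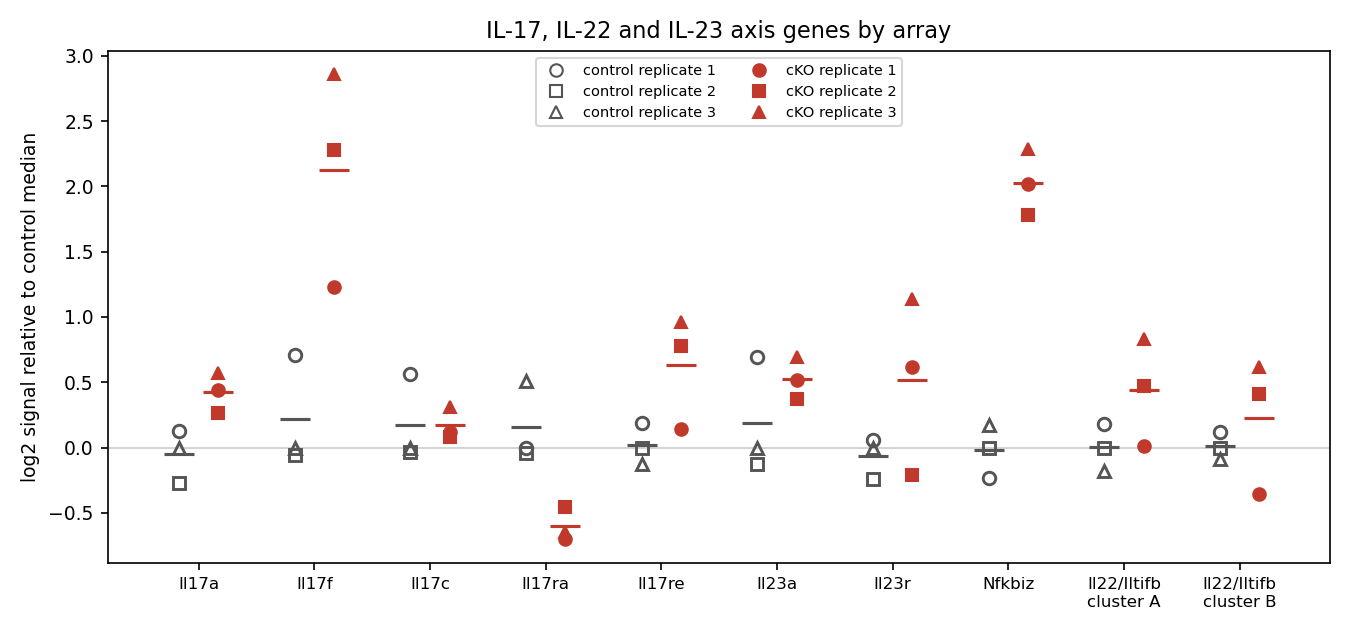
Log2 signal relative to the control median (y axis) of the 8 axis genes and the 2 clusters shared by Il22 and Iltifb (x axis). Open grey symbols are the 3 control arrays, filled red symbols the 3 cKO arrays, symbol shape gives the replicate and short lines are group means. Nfkbiz lies between 1.78 and 2.29 on the cKO arrays, Il17f between 1.23 and 2.86, and Il17ra lies below the controls.

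Over the 8 genes, 3 had every cKO array above every control array (10.1% of all genes) and 1 had every cKO array below (9.25%), where 19.4% of all genes did not overlap in either direction. Limma over all genes called Nfkbiz and Il17f higher, where 1.24% of all genes were called higher, and called 0 of the 8 lower, against 0.697%. Since the genes were picked for their differences, nothing is read from these counts, from the calls, or from whether a call held. The call of Il17f ended when control 1, control 3 or cKO 3 was left out, where its difference was 2.15, 1.79 and 1.54, while that of Nfkbiz held in each of the 6 fits with 1 array left out. The median of the 8 differences was 0.53, against -0.0044 over all genes.

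Among the 8 genes, cKO replicate 3 was the highest cKO array in 7 of them, all but Il17ra, where 45.2% of all genes had it highest. Control replicate 1 was the highest control in 6 of 8, where 48.4% of all genes had it highest. The genes share the same 6 RNA samples, so these counts describe the arrays as much as the genes.

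**Figure D2:**
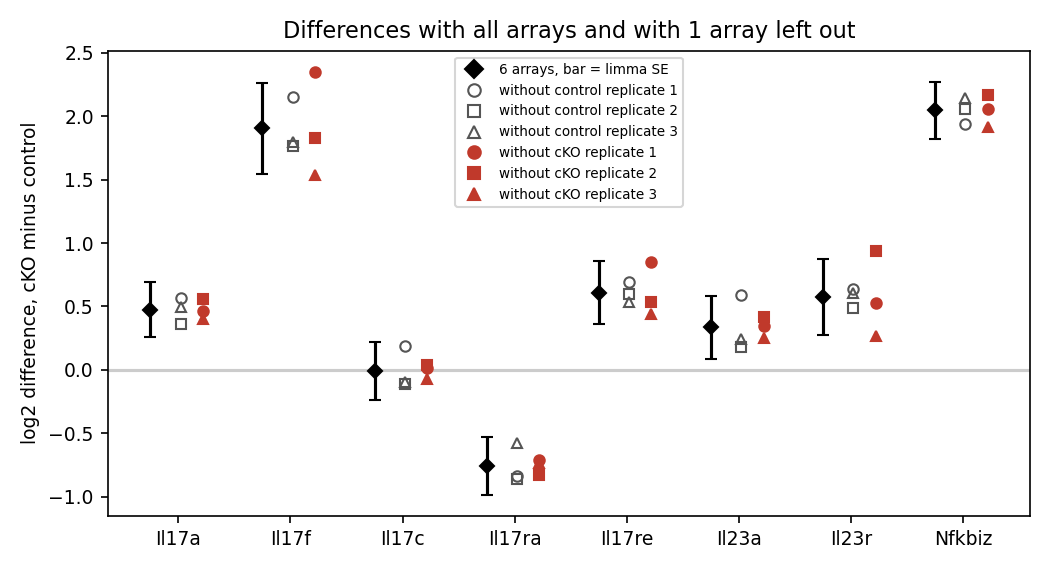
Log2 difference, cKO minus control (y axis), of the 8 axis genes (x axis). Black diamonds use all 6 arrays, with the limma SE as bars, and the other symbols leave out 1 control array (open grey) or 1 cKO array (filled red). Il17f ranges from 1.54 to 2.35, Nfkbiz from 1.92 to 2.17, and Il17c lies on both sides of 0.

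The genes most like Nfkbiz over the 6 arrays, by Pearson correlation, were Kbtbd11 (0.999), 2610528A11Rik (0.998), Gdpd1 (0.996), Saa2, an acute-phase protein (0.995), and Cd86, a costimulatory molecule (0.995). The points are 2 groups of 3 arrays, so such a correlation reflects mainly the step between the groups. The size of that step varied widely among them: Saa2 differed by 5.39 ± 0.26, 2610528A11Rik by 1.63 ± 0.21, Gdpd1 by 1.55 ± 0.22, Cd86 by 0.79 ± 0.20 and Kbtbd11 by 0.72 ± 0.20 on the log2 scale.

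The remaining genes of the axis were taken from lists and tested with limma over all 20793 genes. The other IL-17 family ligands and receptors did not pass: 0 of 6 were called (0 also at an unadjusted p under 0.05) and the median difference was -0.13. The largest differences were those of Il17d, a ligand (-0.49 ± 0.24, limma adjusted p = 0.437), and Il17rb, the IL-25 receptor (-0.22 ± 0.28, limma adjusted p = 0.805). Il17rc, the partner of Il17ra, singled out here after its values were seen, differed by 0.015 ± 0.24.

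Of 17 adaptors and NF-kB signalling genes downstream of the IL-17 receptor, limma called 0 (1 at an unadjusted p under 0.05), with a median of 0.19. Rel, an NF-kB subunit, had control values of 0.05, -0.06 and 0 and cKO values of 0.87, 0.47 and 1.06. Those groups did not overlap, but the difference of 0.80 ± 0.22 did not pass (limma adjusted p = 0.105). With array weights, by which limma counts noisier arrays for less, it was called (0.0271). Relb differed by 0.47 ± 0.27.

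Among 11 IkappaB proteins and feedback inhibitors, 2 rose and 9 did not pass, with a median of 0.50. Zc3h12a, the RNase Regnase-1 that degrades inflammatory transcripts including that of Nfkbiz, had control values of -0.26, 0.06 and 0 and cKO values of 1.70, 1.71 and 1.81. It rose by 1.81 ± 0.21 (limma adjusted p = 0.00039). Bcl3, an IkappaB protein that like IkappaB-zeta acts in the nucleus, had control values of 0, 0.05 and -0.65 against 1.76, 1.17 and 2.42, and rose by 1.98 ± 0.31 (limma adjusted p = 0.00394). Every cKO array of both genes lay above every control, and both were called in each fit with 1 array left out. Nfkbia, which encodes the cytoplasmic inhibitor IkappaB-alpha (0.58 ± 0.21), and Cebpd, a transcription factor of the IL-17 response (0.72 ± 0.24), did not pass.

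In the IL-23 arm, 1 of 11 genes rose and 10 did not pass, with a median of 0.12. The gene that rose was Il12rb2, a subunit of the IL-12 receptor and not of the IL-23 receptor, at 1.21 ± 0.25 (limma adjusted p = 0.0218). Its call ended with control 1 (0.051), control 3 (0.108) or cKO 3 (0.146) left out. Il12rb1, the partner of Il23r in the IL-23 receptor, differed by -0.23 ± 0.25 with overlapping groups. Il18 (-0.40 ± 0.23) and Stat4 (-0.16 ± 0.25) were also negative, while 8 of the 11 were positive. These 3 genes were named after their values were seen. Il18r1, a receptor of IL-18 (0.84 ± 0.28), and Jak2, the kinase attached to Il23r (0.74 ± 0.20), did not pass, the latter with a limma adjusted p of 0.0408 under array weights. Il12b, the p40 partner of Il23a, singled out after its values were seen, had control values of -0.01, 0 and 0.06 and cKO values of 0.95, 0.16 and 0.97, a difference of 0.67 ± 0.25 that did not pass (limma adjusted p = 0.26).

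In the IL-22 arm, which holds its receptor, IL-10 family kin and STAT3 signalling, limma called 0 of 16 (3 at an unadjusted p under 0.05), with a median of 0.13. Il10rb, a subunit of the IL-22 receptor, had control values of 0.12, 0 and -0.14 and cKO values of 1.20, 0.30 and 1.24, a difference of 0.92 ± 0.27 (limma adjusted p = 0.128) that was called at 1.23 without cKO replicate 2 (0.0185) and with array weights (0.0322). Il22ra1, the other IL-22 receptor subunit, named after its values were seen, went the other way (-0.32 ± 0.24, limma adjusted p = 0.64). Its control values were -0.02, 0.01 and 0 and its cKO values -0.79, -0.03 and -0.15, without overlap. Of the 16 genes, 11 had a positive difference. Il19, an IL-10 family cytokine, had control values of -0.03, 0 and 0.05 against -0.02, -0.33 and 5.75. Its difference of 1.79 ± 1.12 did not pass (limma adjusted p = 0.572) and was -0.18 without cKO replicate 3.

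Of 11 cytokines and receptors that promote IL-17 production, 1 rose and 10 did not pass, with a median of 0.38. Il1b, which encodes IL-1 beta, had control values of 0, -0.64 and 0.47 and cKO values of 1.76, 1.47 and 3.52. It rose by 2.31 ± 0.45 (limma adjusted p = 0.0163), but the call ended without control replicate 1 (0.123) or cKO replicate 3 (0.0505). Il6ra, an IL-6 receptor subunit (-0.50 ± 0.23), and Il21, a T cell cytokine (0.44 ± 0.21), did not pass.

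Genes known to respond to IL-17 and IL-22 in keratinocytes were called in 17 of 26 cases, all higher, and 9 did not pass. Over all genes 1.24% were called higher. The list was chosen with earlier results of these data known, so the count is a description. Reg3g, Reg3b, Socs3 and Pim1, listed in the IL-22 arm and named after their values were seen, were not called (-0.35 ± 0.21, 0.10 ± 0.22, -0.014 ± 0.23 and 0.16 ± 0.24). The median of the 26 was 1.36, and 14 were called without cKO replicate 1. Their differences in the 17 ran from 1.06 to 6.11, with limma adjusted p between 8.86e-08 and 0.0426. The 5 of smallest p were S100a8, S100a9, Defb3, Saa3 and Lcn2, which encode antimicrobial and acute-phase proteins, at 4.09 to 6.11. The other 12, named after their values were seen, were the collagenase Mmp13 (2.73 ± 0.23), the beta-defensins Defb4 (3.19 ± 0.28) and Defb14 (1.51 ± 0.21), the neutrophil chemokine Cxcl5 (2.57 ± 0.24), the IL-1 family cytokine Il36a (1.67 ± 0.21), the protease inhibitor Slpi (2.99 ± 0.40), the wound keratins Krt16, Krt6b, Krt6a and Krt17 (1.06 to 1.37), S100a7a (1.12 ± 0.23) and Ccl20, a chemokine for CCR6-bearing cells (1.11 ± 0.25). Krt6a and Krt6b are near-identical, so the share of each is uncertain. Whether IL-17 or IL-22 lay behind the differences of these response genes was not tested.

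The 9 that did not pass included granulocyte growth factors and chemokines of the same response. Csf3 had control values of 0, 0.26 and -0.42 and cKO values of -0.25, -0.05 and -0.18, and Cxcl1 0.06, -0.29 and 0 against -0.18, -0.16 and -0.05. Both, singled out after their values were seen, had overlapping groups, with differences of -0.11 ± 0.23 and -0.05 ± 0.21. Cxcl2 had control values of 0.31, 0 and -0.05 against 2.39, -0.60 and 4.74, a difference of 2.09 ± 0.89 (limma adjusted p = 0.35) that was called at 3.48 without cKO replicate 2 (0.00152) and with the replicate number as a block (0.049), but was 0.81 without cKO replicate 3 (limma adjusted p = 0.81). Mmp3, a metalloproteinase, differed by 1.35 ± 0.37 (limma adjusted p = 0.099) and was called without cKO replicate 2 (0.0302), with array weights (0.0284) and with that block (0.0145), but the difference was 0.85 without cKO replicate 3 (0.301).

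Of the 17 calls, 13 held whichever array was left out. That of Krt6a ended with control 3, cKO 1 or cKO 3 left out (limma adjusted p 0.0567 to 0.0701), and that of Krt17 without any array but cKO replicate 2 (0.0578 to 0.123). The call of S100a7a ended with control 1 or 3 or cKO 2 or 3 left out (0.061 to 0.141), and that of Ccl20 with control 1 or 3 or cKO 1 or 3 left out (0.131 to 0.222).

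**Figure D3:**
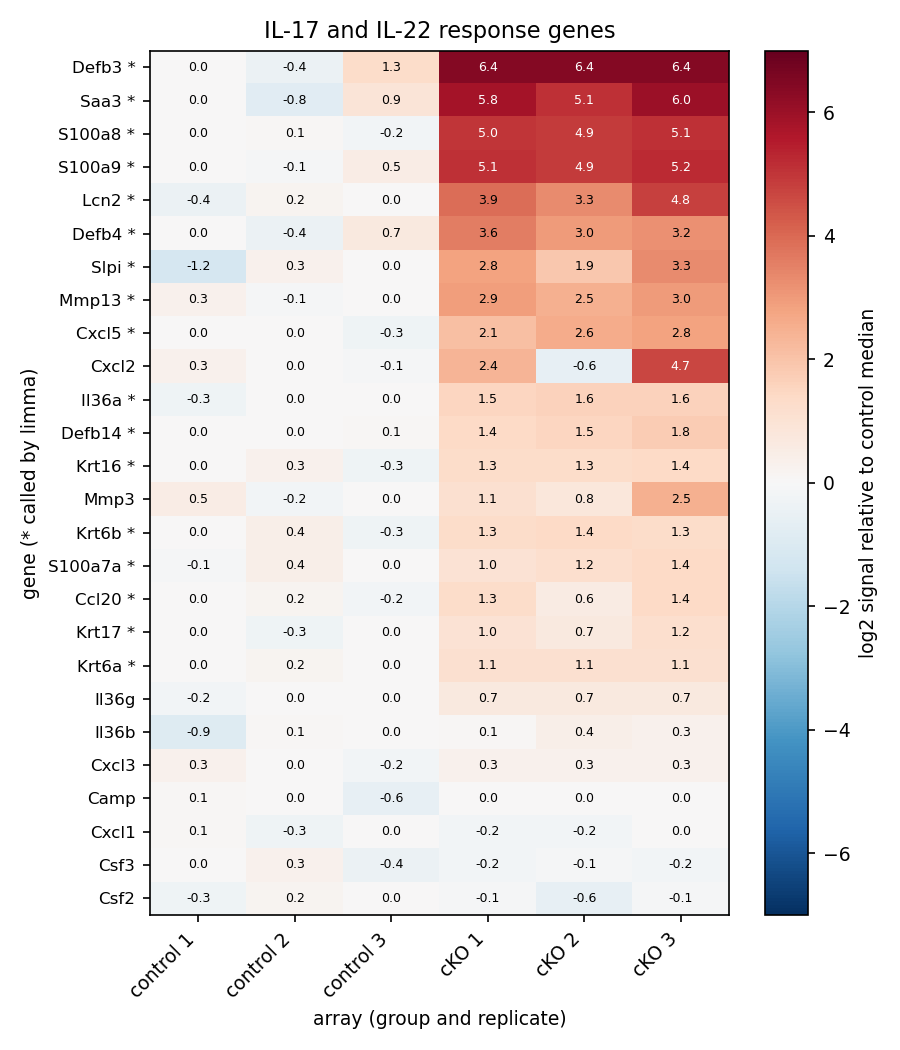
Log2 signal relative to the control median (colour and printed value) of 26 IL-17 and IL-22 response genes (rows, ordered by difference) on the 6 arrays (columns), with an asterisk at the 17 genes called by limma. Most genes are high on all 3 cKO arrays, Cxcl2 is high on 2 of them, and Camp, Cxcl1, Csf3 and Csf2 lie near the controls.

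Markers of the cells that make IL-17 were called in 2 of 15 cases, with a median of 0.34. Ccr2, a chemokine receptor of monocytes and of some IL-17-producing T cells, rose by 1.63 ± 0.25 (limma adjusted p = 0.00324), and Icos, a costimulatory receptor of activated T cells, rose by 1.94 ± 0.34 (0.00799), a call that ended without cKO replicate 3 (0.0974). Il7r, the IL-7 receptor, differed by 1.31 ± 0.37 and was called without control replicate 3 (0.00198) and with the replicate block (0.0142), and Il2ra differed by 0.46 ± 0.30, or 0.083 without cKO replicate 3.

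Of 11 T cell markers, Cd3g (3.52, 3.97 and 4.24 on the cKO arrays, limma adjusted p = 1.39e-06) and Cd3d (1.65 ± 0.27, 0.00562), subunits of the T cell receptor complex, rose and 9 did not pass, among them Cd8a (0.56 ± 0.27) and Cd2 (0.42 ± 0.26). Other members of the list, named after their values were seen, were nearer to 0 or negative: Cd3e and Cd247, which encode further subunits of the same complex, differed by 0.32 ± 0.24 and 0.017 ± 0.23, and Cd4, Cd5 and Cd28 by -0.17 ± 0.23, -0.35 ± 0.36 and -0.15 ± 0.25. The median of this list lay between 0 and 0.38 on the control arrays and between 0.20 and 0.54 on the cKO arrays. The neutrophil list had 1 of 13 called, the gelatinase Mmp9 (3.01 ± 0.43, limma adjusted p = 0.00218), which bone-resorbing cells also make and which was not called without control replicate 1 (0.051). Its array medians were 0 to 0.16 in the controls and -0.0081 to 0.18 in the cKO. Itgam (0.63 ± 0.25) and Ltf (0.49 ± 0.21) did not pass. Of the 13, 7 had a positive difference. Mpo (-0.31 ± 0.25), Ngp (-0.20 ± 0.21), Cxcr1 (-0.13 ± 0.24) and Elane (-0.041 ± 0.25), named after their values were seen, were negative.

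Of 13 macrophage and dendritic cell markers limma called 0 (3 at an unadjusted p under 0.05), with array medians of 0 to 0.41 in the controls and -0.0002 to 0.32 in the cKO. The 3 went in both directions: Cd14 (1.03 ± 0.31) and Cd68 (0.82 ± 0.23) were positive, while Cd207, a marker of Langerhans cells named after its values were seen, was negative (-0.67 ± 0.26, limma adjusted p = 0.303) and its groups did not overlap. Cd163, a macrophage receptor also named after its values were seen, differed by -0.80 ± 0.45 with overlapping groups. Cd14 passed with control 2 (0.0363) or cKO 2 (0.0435) left out, and Cd68 with array weights (0.0384). Of 8 basal epithelial markers, the cells targeted, the keratin Krt15 fell by 1.45 ± 0.23 (limma adjusted p = 0.0044) and 7 did not pass. Among those 7 were Krt14 (0.37 ± 0.20) and Col17a1 (-0.31 ± 0.22). Krt15 was not tested under the authors' percentile filter, which acts on control-centred values and removes it. The part of these cell types in the differences of the axis genes was not tested. With values relative to the controls, whether a marker is absent cannot be read.

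**Figure D4:**
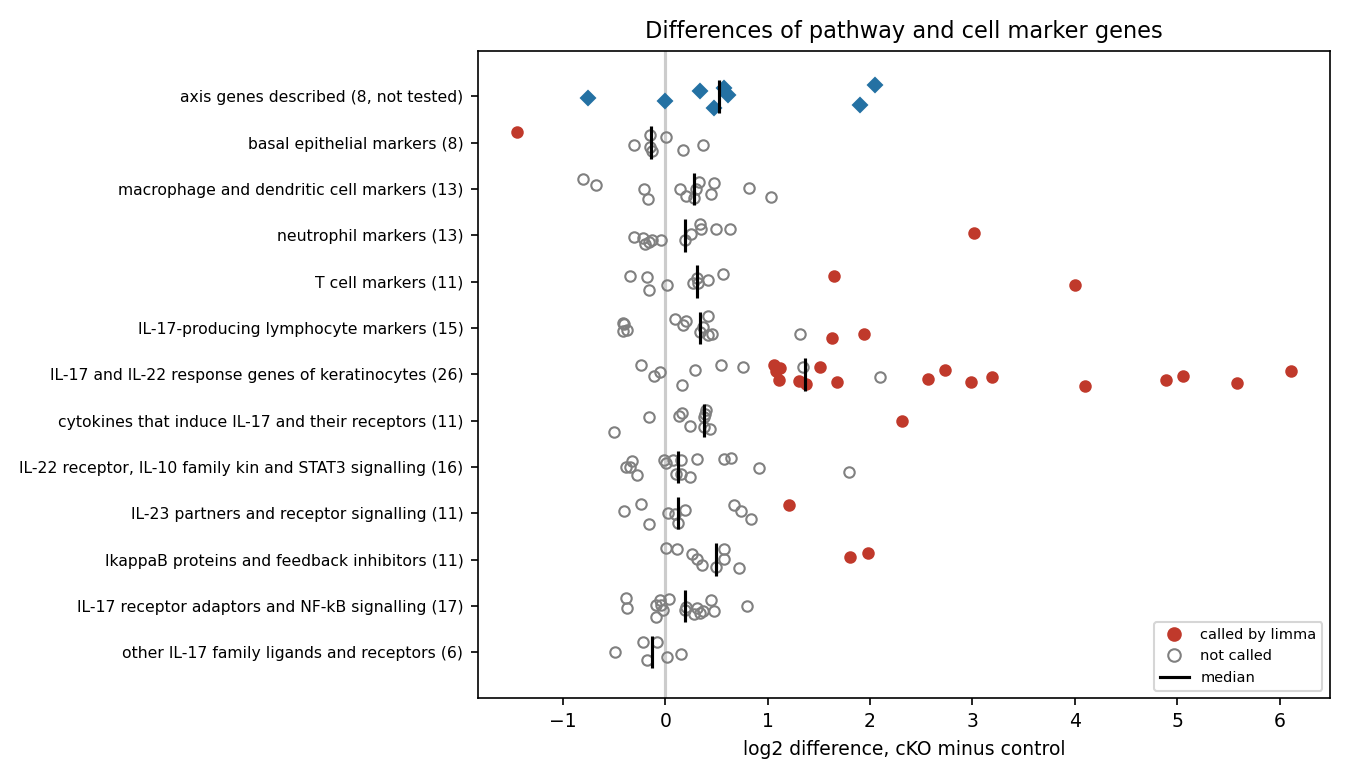
Log2 difference, cKO minus control (x axis), of the genes of 12 lists and of the 8 axis genes (y axis, with the number measured). Filled red points were called by limma, open points were not, blue diamonds are the axis genes and black lines are medians. The response genes reach 6.11 with a median of 1.36, while the other lists have medians between -0.14 and 0.50.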

How the data were processed

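The deposited values are log2 signals. According to the methods sheet deposited beside them, the authors used PLIER16 with quantile normalisation and set each cluster to the control median, which was 0 in all 28853 clusters. Probe annotation, per the file headers, was release na31 (mm9). Signed fold scores and p-values in the deposited tables follow a 1.5-fold filter, from a t-test per the file headers and an ANOVA per the methods sheet. Here 22971 clusters with 1 gene were averaged to 20793 genes, with symbols updated through a RefSeq table of GRCm38.p6. The test was limma 3.58.1 under R 4.3.3 (functions lmFit and eBayes, no covariate, Benjamini-Hochberg over all genes at 0.05), which was tested on simulated data. The number of arrays limits the precision.

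The axis genes, lists, motifs and named-gene rule were chosen with earlier results of these data known. The rule names, per list, up to 5 called genes of smallest p and the 2 largest differences not called, Ctnnb1, and the 5 genes most correlated with the axis gene of largest difference. Of 165 listed genes 158 were measured. Il36a, Il36b and Il36g were matched through older symbols. Alternatives were array weights, array centring, a block on replicate number, clusters tested singly, the authors' percentile filter, workbook values, a plain t-test and leaving out each array. The values of 1 listed gene are not reported here.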

Additional observations from a re-analysis of the deposited data

How the results depend on the processing

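Under the other alternatives, the differences of the 8 axis genes stayed within the ranges found with 1 array left out, given next. With 3 arrays per group, leaving 1 out cannot move a difference by more than its spread between replicates, so staying within that spread shows nothing. Leaving out 1 array at a time gave 0.36 to 0.56 for Il17a, 1.54 to 2.35 for Il17f, -0.11 to 0.19 for Il17c, -0.86 to -0.58 for Il17ra, 0.44 to 0.85 for Il17re, 0.18 to 0.59 for Il23a, 0.27 to 0.94 for Il23r and 1.92 to 2.17 for Nfkbiz. Limma called 258 genes higher and 145 lower, with ranges of 133 to 261 and 59 to 165 when 1 array was left out: both counts were lowest with cKO replicate 3 left out, and fewer lower calls (75 and 81) were also made when control 1 or 3 was left out. Array weights gave 523 and 305, the plain t-test 10 and 3, and the authors' percentile filter 307 and 47. That filter, rebuilt here on control-centred values, gave the 1755 clusters of the deposited fold list. It ranks clusters by signal relative to the control median, so a gene that it removes need not be faint. The replicate number as a block gave 218 lower. Deviations of same-numbered arrays from their group means had correlations of 0.0424, 0.138 and -0.0851 for replicates 1, 2 and 3. Those of differently numbered arrays ran from -0.1869 to 0.138. These values give no sign that the numbers pair the samples, but cannot exclude it. Of 26 response genes 17 were called, 13 to 18 without 1 array and 2 with the plain t-test, which also called neither Nfkbiz nor Il17f. Of the 15 pathway genes called and named by the rule, the plain t-test did not call 13, Krt15 among them (0.171), and the filter removed 1, Krt15, from testing. The cause of these moves was not tested. Signal over background is unknown in control-centred values, which limits what a small difference can mean.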
